A study of Mus musculus with 6 samples.

Results

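Integrins are the receptors that hold cells to the extracellular matrix and to each other, and focal adhesion proteins are the cytoplasmic proteins that connect them to actin. The transcripts of 40 such genes, 22 integrin subunits and 18 intracellular partners, were set among all 21603 genes of the tables. They were read from ribosome-bound RNA, precipitated from lungs through a tag switched on in PDGFRβ-expressing cells such as pericytes. The members were given as a list of gene symbols, and all 40 were found through their Ensembl identifiers in GENCODE M21. Their levels are RPKM, reads scaled to exon length and library size, so levels of different genes can be compared per length.

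The libraries came from mouse lungs at postnatal day 8, from C57BL/6 mice, 3 of them control and 3 Yap1,Wwtr1 iPCKO. Yap1 and Wwtr1 encode YAP1 and TAZ, coactivators that enter the nucleus of cells on stiff matrix. Mice of both groups carried the Pdgfrb(BAC)-CreERT2 transgene and the RiboTag allele of Rpl22, and received tamoxifen in the first days after birth. Controls, written as Yap1+/-;Wwtr1+/-, carried a loxP-flanked allele, which Cre can inactivate, and an intact allele of each gene. Mutants, written as Yap1-/-;Wwtr1-/-, carried loxP-flanked alleles only. In cells where Cre recombined these alleles, the comparison is between a single working copy of each gene and none. Cells without Cre activity keep their alleles. Cre in this line is active in PDGFRβ-expressing cells, which include cells other than pericytes. Lungs were perfused before freezing, and the HA-tagged ribosomes were precipitated from a lysate of whole lung.

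Each integrin is a dimer of an alpha and a beta subunit, and the pair sets the ligand. Subunits α1 and α2 with β1 bind collagen, α3, α6 and α7 with β1 bind laminin, and α5 and α8 with β1 and the αv dimers bind matrix proteins that carry an RGD motif. Talin and kindlin switch integrins on, the complex of integrin-linked kinase (ILK), PINCH and parvin ties them to actin, and focal adhesion kinase (FAK) passes the signal on. Leukocytes use the β2 and β7 dimers to stop at vessel walls, and platelets use αIIbβ3 to bind fibrinogen.

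The steps between low RPKM values implied a total of 17410000 to 34730000 reads in control libraries and 14230000 to 39710000 reads in iPCKO libraries, and control 3 and iPCKO 2 were the deepest of their groups. With these totals, 75.3% to 76.1% of low genes with 1 transcript in the controls came within 0.02 of a whole read. A read on a gene with 1 kb of exons was worth between 0.0252 and 0.0703 RPKM. Yap1 fell from 12.35 ± 0.859 RPKM (SD, n = 3) in controls to 5.61 ± 0.314 RPKM in iPCKO libraries, whereas Wwtr1 had 60.4 ± 9.48 RPKM and 62.0 ± 1.63 RPKM, and a single value per gene cannot separate recombined exons from the others. Pdgfrb itself had between 1193 and 1666 RPKM in the 6 libraries, and all 10 pericyte markers reached the tested level. By the thresholds given below, 3 were higher in the mutant, Cspg4, Kcnj8 and Abcc9, against 4.11% of all tested genes. Another 2 were lower, against 2.68%: Rgs5 at 43.9% and Notch3 at 52.1% of the control mean. The Y-linked transcript Ddx3y had 17.2 RPKM in control 1 and 19.75 RPKM in control 3 and was listed at 0 in control 2 and in the 3 iPCKO libraries. Apart from control 2, genotype and the absence of Y-linked transcripts cannot be told apart. Transcripts of blood cells were also higher in iPCKO libraries, and their values stand beside the integrins of those cells. Transcripts of further cell types were present in controls. The epithelial Sftpc had 362.8 ± 22.2 RPKM, the fibroblast Col3a1 632.5 ± 60.1 RPKM and the endothelial Cdh5 32.95 ± 1.46 RPKM. The libraries used here include no input RNA, and the part of such cells in the level of any member was not tested.

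Genes were tested with limma on log2(RPKM + 0.1), and a gene was called when its Benjamini-Hochberg adjusted p-value over all tested genes was below 0.01 and its absolute log2 fold change above 0.5. Levels of the 40 members in controls spanned 0.374 RPKM (Itgb4) to 349.0 RPKM (Itgb1), and next in order came Itga1, Flna, Fermt2 and Tns1, whose control ranges overlapped from each gene to the next. Of the 40 members, 38 reached 1 RPKM in at least 3 libraries and were tested. Of these 38, 12 were called (31.6%), compared with 817 of 12034 tested genes (6.79%). In the mutant, 6 members were higher, against 4.11% of all tested genes, and 6 were lower, against 2.68%. The median log2 fold change was -0.05 over the tested members and 0 over all tested genes. In 27 of the 38 members the 3 libraries of one group lay above the 3 of the other, which held for 35.5% of all tested genes. The mutants lay above the controls in 12 members (18.3% of all tested genes) and below them in 15 (17.1%). The members that rose were Itgb2, Itgal, Itgb7, Itga2b, Itgb3 and Itga5, and those that fell were Itga1, Itga4, Itga7, Ptk2, Tns3 and Lims2. The rises were those of Itga5 and of 5 integrin subunits used by blood cells, of which Itgb3 is also used by tissue cells. The falls were those of 3 alpha subunits and 3 intracellular partners. Without iPCKO 2, 3 members were higher and 4 lower, and without both control 3 and iPCKO 2, the deepest pair, the calls left were Itgb3 and Lims2.

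**Figure D1:**
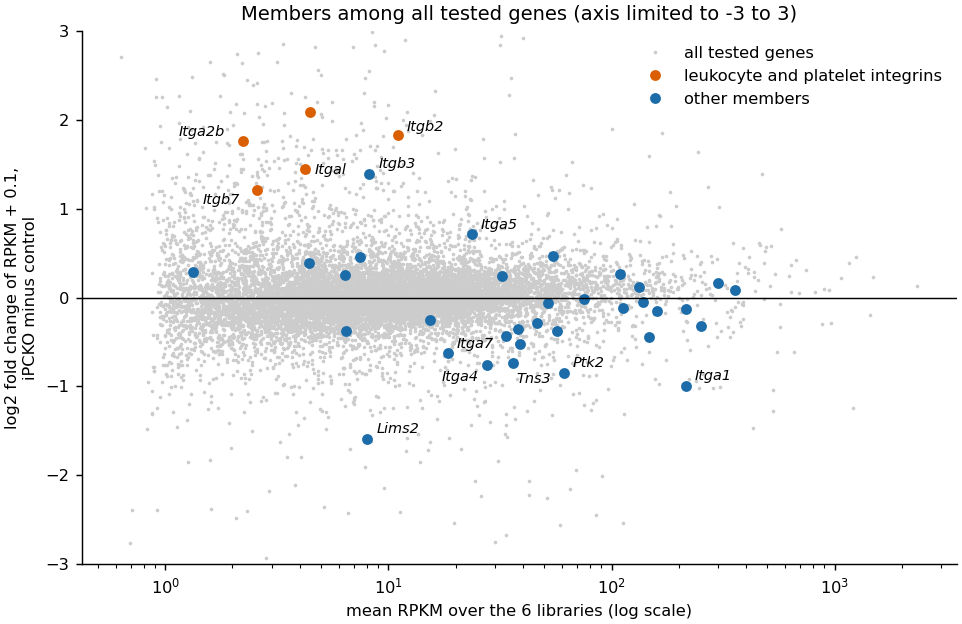
Log2 fold change of RPKM + 0.1 (iPCKO minus control, vertical axis) against the mean RPKM over the 6 libraries (horizontal log axis) for all 12034 tested genes in grey, with genes beyond 3 in either direction outside the frame. The 5 leukocyte and platelet integrins, in orange, lie at low levels and above 1, while Itga1 combines a high level with a fold change of -0.99.

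**Figure D2:**
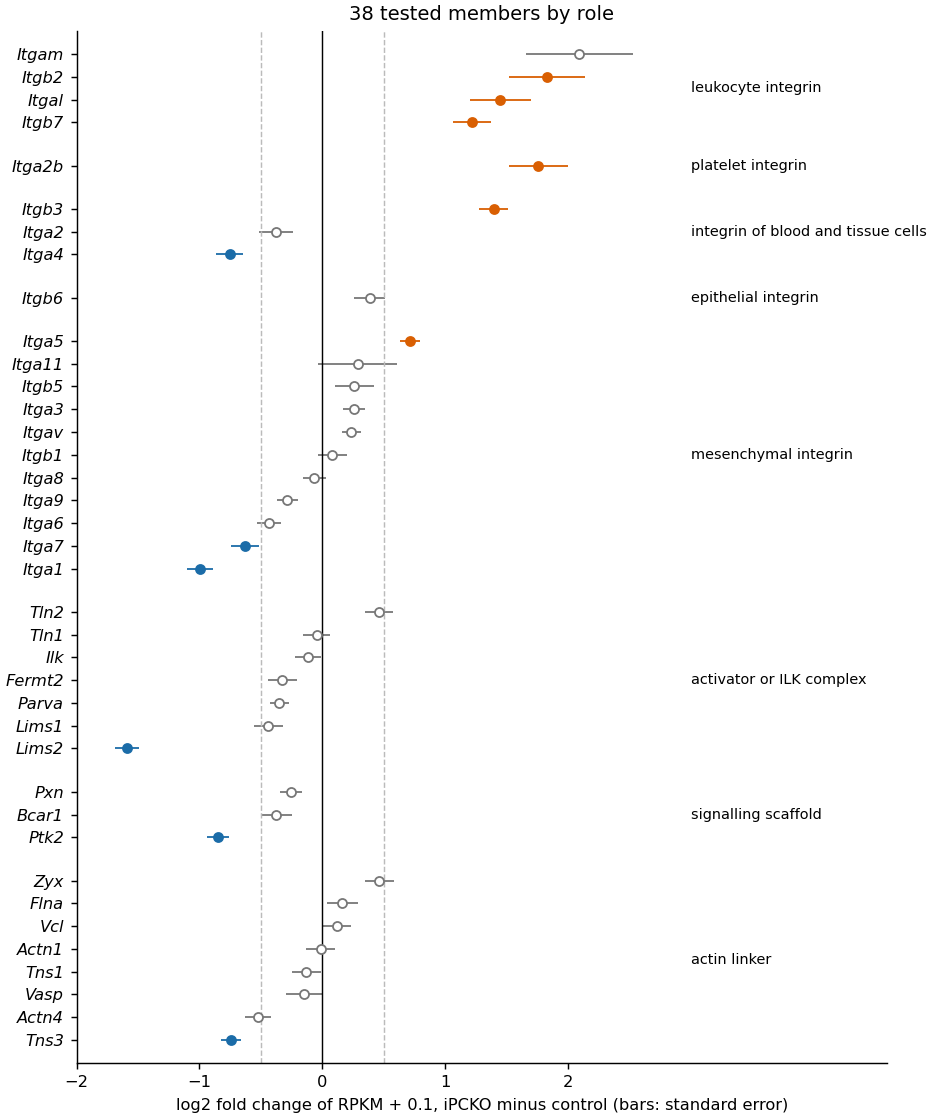
Log2 fold changes (iPCKO minus control, bars: standard error from limma) of the 38 tested members by role. Filled points were called, in orange where higher and in blue where lower, and dashed lines mark 0.5 in either direction.

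Among the mesenchymal integrins, Itga1 changed most. It encodes the α1 subunit, which with β1 binds collagen IV of basement membranes, and lies on chromosome 13 from 114953096 to 115101964 (ENSMUSG00000042284, GRCm38). Itga1 had 284.0, 265.4 and 311.1 RPKM in controls 1, 2 and 3 and 144.9, 150.1 and 136.6 RPKM in iPCKO 1, 2 and 3. The lowest control was far above the highest mutant, and the mutant mean of 143.9 ± 6.86 RPKM (SD, n = 3) was 50.15% of the control mean of 286.8 ± 23.0 RPKM. The log2 fold change was -0.99 (standard error, SE, 0.11, limma adjusted p = 0.00057). Some exons of Itga1 are shared in the annotation with Gm49395 on the same strand, a gene the tables do not list.

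Itga5, which encodes the α5 subunit of the fibronectin receptor (chromosome 15, 103344286 to 103366763, ENSMUSG00000000555), went the other way. It had 18.9, 16.8 and 17.9 RPKM in controls and 28.2, 30.8 and 29.0 RPKM in iPCKO libraries. The groups did not overlap, and the log2 fold change was 0.71 (SE 0.09, limma adjusted p = 0.00099). Within a library, the ratio of Itga5 to Itga1 was between 0.0576 and 0.0665 in controls and between 0.195 and 0.212 in mutants. The log2 ratio differed by 1.71, given without a test because these genes were paired after being called in opposite directions.

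Of the 3 laminin-binding subunits 1 was called (against 6.79% of all tested genes). Itga7, the laminin receptor subunit known from muscle (chromosome 10, 128933818 to 128958282), had 20.6, 21.3 and 25.3 RPKM in controls against 14.0, 16.3 and 13.1 RPKM in the iPCKO group, with a log2 fold change of -0.63 (SE 0.12, limma adjusted p = 0.0082). Leaving out any 1 of the 6 libraries ended this call, with adjusted p-values up to 0.036. Itga6, of the α6β1 and α6β4 laminin receptors, had 38.7 ± 3.55 RPKM in controls and 28.6 ± 1.65 RPKM in the iPCKO group, without overlap, but its adjusted p-value of 0.019 did not pass. Itga3 had the smallest level of the laminin-binding members, 5.80 ± 0.179 against 6.96 ± 0.308 RPKM (limma adjusted p = 0.083).

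The other alpha subunits of mesenchymal cells were not called. Itga8, the receptor subunit for nephronectin and a marker of lung interstitial cells, had 50.4, 52.5 and 56.2 RPKM in controls and 48.8, 55.0 and 48.5 RPKM in iPCKO libraries. These ranges overlapped, and the log2 fold change of -0.06 had a standard error of 0.09. Itga9, which binds tenascin-C, had 51.0 ± 2.99 RPKM against 41.8 ± 1.86 RPKM (limma adjusted p = 0.06), and Itgav, the αv subunit that pairs with β1, β3, β5, β6 or β8, had 29.2, 29.2 and 30.6 RPKM against 33.5, 36.6 and 34.9 RPKM (limma adjusted p = 0.084). In both genes the groups did not overlap. Itga11, a collagen receptor subunit of fibroblasts, was near 1 RPKM in 5 libraries and 2.55 RPKM in iPCKO 1.

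The 14 alpha subunits had a sum of 395.7 ± 10.04 RPKM in the iPCKO group (SD, n = 3), compared with 553.1 ± 32.5 RPKM among controls. Itga1 was 51.8% ± 1.33 of this sum in controls and 36.4% ± 1.64 in mutants. The difference in Itga1 was 90.8% of the difference in the sum, since the remaining 13 alpha subunits summed to 266.3 RPKM in controls and 251.8 RPKM in the iPCKO group. The share of Itga5 went from 3.23% ± 0.226 to 7.41% ± 0.162, and that of Itgav from 5.37% ± 0.179 to 8.84% ± 0.174. The share of Itga8 went from 9.59% ± 0.339 to 12.8% ± 0.663. Shares of a sum are not independent, and a share can grow where the level did not pass the test, as for Itgav and Itga8.

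**Figure D3:**
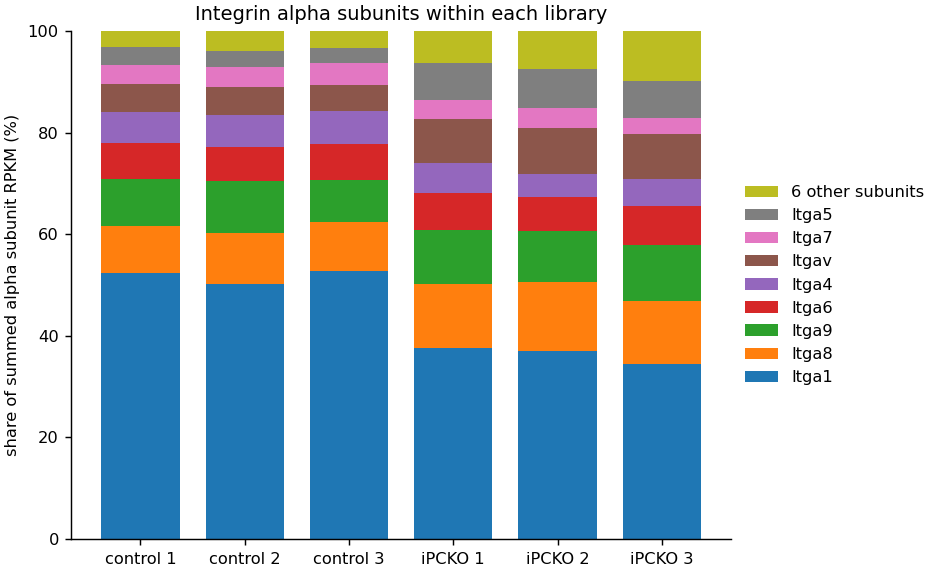
Share of each alpha subunit in the summed RPKM of the 14 alpha subunits (vertical axis, percent) in each of the 6 libraries. Itga1 takes 50.3% to 52.8% in controls and 34.5% to 37.6% in iPCKO libraries. Itga5, Itgav, Itga8 and the group of 6 minor subunits take larger shares in every mutant. This group includes Itgam, Itgal and Itga2b of blood cells.

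The sequences before the starts of Itga1 and Itga5 are shown because these genes moved in opposite directions, a choice made after their values were seen, beside that of Vcl, the vinculin gene, as a member that was not called but holds both motifs searched. They are the 250 bases before the RefSeq start on GRCm38.p6, printed 5′ to 3′ on the strand of the gene, with matches in capitals. The motifs were GGAATG or its reverse complement CATTCC, the core letters bound by TEAD factors, and the CArG box bound by SRF, an actin-regulated factor. Itga1 is read from chr13:115101965-115102214 (minus strand), Itga5 from chr15:103366792-103367041 (minus strand) and Vcl from chr14:20929148-20929397 (plus strand).
Itga1: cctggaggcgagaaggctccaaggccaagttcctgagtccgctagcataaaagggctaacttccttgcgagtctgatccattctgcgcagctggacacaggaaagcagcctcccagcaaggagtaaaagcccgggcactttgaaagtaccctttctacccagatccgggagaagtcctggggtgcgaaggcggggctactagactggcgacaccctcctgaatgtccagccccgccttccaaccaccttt
Itga5: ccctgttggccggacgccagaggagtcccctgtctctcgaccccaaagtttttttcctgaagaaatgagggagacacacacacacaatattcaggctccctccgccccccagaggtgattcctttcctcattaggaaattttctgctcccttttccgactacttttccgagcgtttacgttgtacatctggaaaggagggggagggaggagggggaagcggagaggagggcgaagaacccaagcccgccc
Vcl: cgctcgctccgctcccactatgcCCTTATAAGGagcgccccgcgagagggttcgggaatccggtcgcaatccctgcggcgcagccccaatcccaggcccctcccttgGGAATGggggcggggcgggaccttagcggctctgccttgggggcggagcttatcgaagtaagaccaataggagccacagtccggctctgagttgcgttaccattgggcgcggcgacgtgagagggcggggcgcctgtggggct
Neither Itga1 nor Itga5 held a match in this window, while Vcl held a CArG box 227 bases and GGAATG 143 bases before its start. Promoters were listed for 29 of the 40 members, 35 in all, of which 4 (11.4%) held the TEAD letters, compared with 12.6% of all 32851 promoters of this length. The CArG box was found in 3 of the 35 (8.57%), in Vcl, Fermt2 and Itgb6, compared with 1.47% of all promoters. None of the 6 called members with a listed promoter, Itga1, Itga4, Itga5, Itga2b, Itgb7 and Tns3, held either motif in these 250 bases. With such shares over all promoters, 6 promoters are too few for this absence to be informative, and more distant sequence was not searched.

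Of the beta subunits, Itgb1 was the most abundant of all 40 members. It encodes β1, the partner of most mesenchymal alpha subunits, and had 354.6, 324.5 and 367.8 RPKM in controls and 351.1, 399.0 and 359.3 RPKM in the iPCKO group. The groups overlapped, and the log2 fold change was 0.08 with a standard error of 0.12. The ratio of Itga1 to Itgb1 went from 0.801 to 0.846 in controls to 0.376 to 0.413 in mutants. Itgb5, the β5 partner of αv in the vitronectin receptor, had 100.0 ± 21.4 RPKM in controls and 118.9 ± 14.4 RPKM in the iPCKO group, also with overlap. Itgb8, whose dimer with αv activates latent TGF-β, was below 1 RPKM in every library and was not tested.

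Integrins shared by blood cells and tissue cells did not move together. Itgb3 encodes β3, which pairs with αv in mesenchymal cells and with αIIb in platelets (chromosome 11, 104608000 to 104670476, ENSMUSG00000020689). It had 3.91, 4.68 and 4.83 RPKM in controls and 10.65, 11.95 and 13.2 RPKM in iPCKO libraries. The lowest mutant was well above the highest control, and the log2 fold change was 1.40 (SE 0.12, limma adjusted p = 0.00019), the smallest adjusted p-value among the members that rose. Itga4 encodes α4, which binds VCAM1 and fibronectin on leukocytes and on mesenchymal cells. It had 33.7, 32.5 and 38.2 RPKM in controls and 22.6, 18.2 and 21.03 RPKM in the iPCKO group, and its log2 fold change was -0.76 (limma adjusted p = 0.0023). It lost its call without control 3 and without iPCKO 2, where its adjusted p-value was at most 0.013. Itga2, the collagen receptor subunit of platelets and epithelium, had 7.27 ± 0.891 RPKM in controls and 5.60 ± 0.884 RPKM in the iPCKO group (limma adjusted p = 0.11).

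The leukocyte integrins were higher in every mutant library than in every control library, which held for 18.3% of all tested genes. Itgb2 encodes β2 (CD18), the partner of all CD11 subunits (chromosome 10, 77530252 to 77565708). It had 3.51, 6.65 and 3.97 RPKM in controls and 10.4, 17.9 and 23.6 RPKM in iPCKO 1, 2 and 3, a log2 fold change of 1.83 (SE 0.31, limma adjusted p = 0.0055). Itgal (CD11a), of the LFA-1 receptor for ICAM1, had 1.73, 3.30 and 1.79 RPKM against 4.92, 6.23 and 7.45 RPKM, with a log2 fold change of 1.45 (limma adjusted p = 0.0057). Itgam (CD11b), of the complement receptor of neutrophils and macrophages, had 1.21, 2.03 and 1.16 RPKM against 3.12, 6.60 and 12.6 RPKM. Its log2 fold change of 2.09 was the largest of the members, but the adjusted p-value was 0.014 with a standard error of 0.44, and it was not called. In these 3 genes control 2 was the highest control, and iPCKO 3 the highest library of all.

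Itgb7 encodes β7, which with α4 guides lymphocytes to the gut. It had 1.61, 1.55 and 1.33 RPKM in controls and 3.08, 3.52 and 4.30 RPKM in the iPCKO group, a log2 fold change of 1.22 (limma adjusted p = 0.0013). The platelet subunit Itga2b, or CD41, had 0.744, 0.988 and 1.12 RPKM in controls and 2.43, 3.58 and 4.55 RPKM in the iPCKO group, a log2 fold change of 1.76 (limma adjusted p = 0.0019). Itgb7 passed whichever of the 6 libraries was left out, and Itga2b in 5 of these fits, all but that without iPCKO 2, where its adjusted p-value was 0.011. Itgal and Itgb2 each passed in 2 of the 6 leave-one-out fits, with adjusted p-values up to 0.025 and 0.026 in the others.

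Markers of the cells that carry these integrins moved with them. The mean log2(RPKM + 0.1) of 10 leukocyte markers was between 1.90 and 2.33 in controls and 2.82, 3.29 and 3.73 in iPCKO 1, 2 and 3, and 5 of the 10 were called, all higher. Over all tested genes, 6.79% were called, and 4.11% were called higher. For 10 neutrophil markers the mean was between 1.46 and 2.14 in controls and 3.47, 5.30 and 6.57 in mutants, with 6 of 10 called. For 9 platelet markers, Itga2b among them, it was between -0.21 and -0.04 in controls and 1.24, 2.01 and 2.49 in mutants. Of the 7 platelet markers that were tested, 6 were called and all 6 were higher, Itga2b itself among them. Of the called markers, Gp9 and Treml1 were below 1 RPKM in every control and were tested only because of their mutant levels. The same held for Mmp9 of the neutrophil list and Marco of the macrophage list. The filter thus favoured finding these genes higher, and the counts of calls are descriptions only. For each of these lists the difference had p = 0.1 in a two-sided exact permutation test, the smallest p that 3 libraries against 3 allow. Macrophage markers, 9 genes, differed by 1.06 with 1 of 8 tested genes called. Lymphocyte markers did not follow: 6 genes gave means between -0.19 and 0.14 in controls and between -0.64 and 0.00 in mutants, and Cd3e was at most 0.293 RPKM in all libraries. The endothelial, fibroblast and pericyte lists overlapped between groups, with differences of 0.11, -0.01 and 0.13, and the smooth muscle list differed by 0.20 without overlap. Calls in these lists were 2 of 8 endothelial, 0 of 8 fibroblast, 5 of 10 pericyte and 3 of 8 smooth muscle markers. The pericyte difference turned to -0.31 as a median over the list (p = 0.1, two-sided exact permutation test). The endothelial one was 0.20 as a median over the list (p = 0.1, two-sided exact permutation test) and 0.04 without control 1. The called endothelial genes, Kdr and Vwf, were higher in the mutant. The part of blood cell RNA in the higher leukocyte and platelet integrins was not tested, and in these bulk samples more cells of a type and more RNA per cell cannot be told apart.

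**Figure D4:**
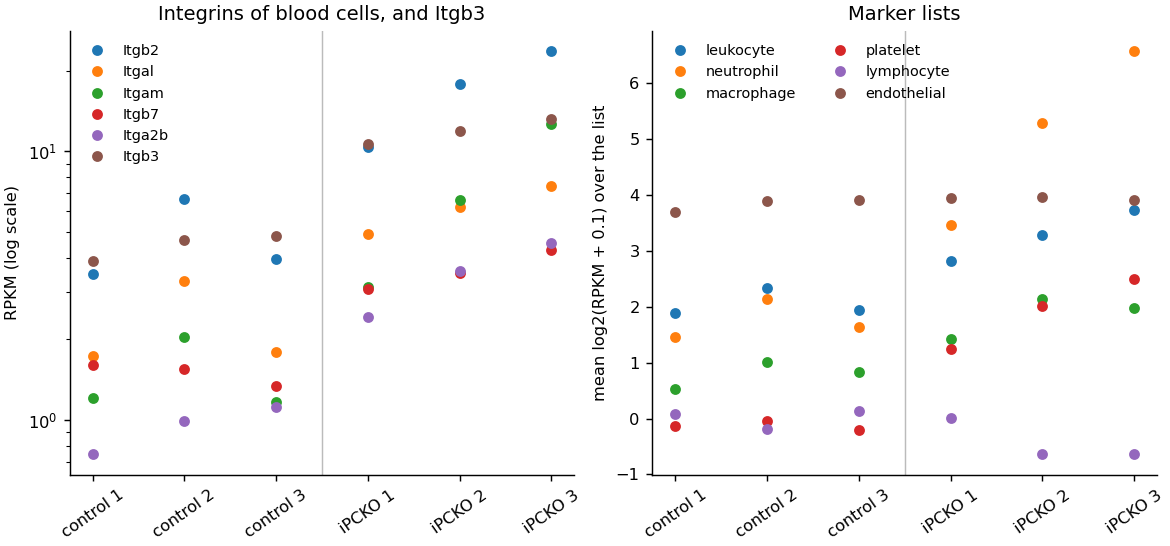
Left, RPKM (log axis) of the 4 leukocyte integrins, the platelet subunit Itga2b and Itgb3 in each library. Right, mean log2(RPKM + 0.1) over lists of cell type markers. Control and iPCKO libraries are separated by the vertical line, and the leukocyte, neutrophil, macrophage and platelet lists lie above all controls in each iPCKO library, while the endothelial list stays between 3.71 and 3.97.

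Itgb3 exceeded its platelet partner in every library. Itgb3 minus Itga2b was 3.17, 3.70 and 3.71 RPKM in controls and 8.23, 8.37 and 8.63 RPKM in the iPCKO group. The ratio of Itgb3 to Itga2b was between 4.33 and 5.26 in controls and between 2.90 and 4.39 in mutants, and these ranges overlapped. Against Itgb5, another beta partner of αv, the ratio of Itgb3 went from at most 0.0566 in controls to at least 0.0816 in mutants. How much of the Itgb3 transcript came from platelets, from Cre-recombined cells or from other lung cells cannot be told apart in one value per gene.

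The epithelial subunits were low. Itgb6, which pairs with αv in airway and alveolar epithelium, had 3.82 ± 0.493 RPKM in controls and 5.01 ± 0.484 RPKM in the iPCKO group (limma adjusted p = 0.08). Itgb4, the hemidesmosome subunit, was between 0.318 and 0.914 RPKM and was not tested. Epithelial markers differed by 0.29 in their mean log2(RPKM + 0.1), without overlap between groups. Of the 9 markers 2 were called, both higher, against 4.11% of all tested genes. Taken as a median over the list, the difference was 0.06 (p = 0.7, two-sided exact permutation test).

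Of the 7 genes that activate integrins or form the ILK complex, 1 was called (14.3%, against 6.79% of all tested genes). Lims2 encodes PINCH2, a LIM-domain adaptor that binds ILK and shares this role with PINCH1 (ENSMUSG00000024395). It had 12.6, 11.25 and 12.5 RPKM in controls and 3.92, 4.30 and 3.66 RPKM in the iPCKO group, 32.7% of the control mean. Its log2 fold change of -1.59 (SE 0.10, limma adjusted p = 4.3e-05) was the largest fall and had the smallest adjusted p-value of all members. Lims1, which encodes PINCH1, was far more abundant, with 169.9 ± 16.0 RPKM in controls and 125.4 ± 11.85 RPKM in the iPCKO group (log2 fold change -0.44, limma adjusted p = 0.036). The ratio of Lims2 to Lims1 was between 0.068 and 0.0738 in controls and between 0.0284 and 0.0348 in mutants.

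The other parts of the complex stayed closer to the control level. Ilk had 116.9 ± 7.79 RPKM in controls and 108.0 ± 9.63 RPKM in the iPCKO group, with overlap. Parva, the α-parvin that links ILK to actin, had 42.6 ± 1.79 against 33.4 ± 0.306 RPKM, and Fermt2, the kindlin of mesenchymal cells, had 279.2 ± 29.2 against 222.6 ± 15.2 RPKM. In both genes all mutants lay below all controls, but the adjusted p-values were 0.02 and 0.11. Tln1, the main talin, had 140.0 ± 6.29 and 136.1 ± 15.1 RPKM, whereas the minor form Tln2 had 6.12, 6.44 and 6.16 RPKM in controls and 7.36, 9.01 and 9.64 RPKM in the iPCKO group (log2 fold change 0.46, limma adjusted p = 0.028).

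All 3 signalling scaffolds were lower in every mutant than in every control, which held for 17.1% of all tested genes, and 1 was called (6.79% of all tested genes). Ptk2 encodes FAK, the tyrosine kinase recruited to clustered integrins (chromosome 15, 73205102 to 73423280, ENSMUSG00000022607). It had 78.6, 72.6 and 84.5 RPKM in controls and 43.6, 43.5 and 43.4 RPKM in the iPCKO group, so the mutants were nearly equal and lay far below the controls. The log2 fold change was -0.85 (SE 0.09, limma adjusted p = 0.00051). Pxn, which encodes the FAK partner paxillin, had 16.7 ± 1.41 against 14.0 ± 0.616 RPKM (limma adjusted p = 0.1), and Bcar1, which encodes the FAK substrate p130Cas, had 64.6 ± 10.4 against 49.6 ± 4.02 RPKM (limma adjusted p = 0.089).

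Of the 8 genes that connect adhesions to actin, Tns3 was called (12.5%, against 6.79% of all tested genes). Tns3 encodes tensin-3, which binds the NPxY motif of beta tails (chromosome 11, 8431652 to 8664535). It had 47.7, 43.05 and 44.6 RPKM in controls and 26.9, 28.3 and 25.5 RPKM in the iPCKO group, a log2 fold change of -0.74 (SE 0.09, limma adjusted p = 0.00084). Tns1, its more abundant relative, had 225.2 ± 26.6 and 204.9 ± 10.85 RPKM with overlapping groups, and the ratio of Tns3 to Tns1 was lower in every mutant than in every control. Actn4, the α-actinin that bundles actin near adhesions, had 45.7 ± 5.31 against 31.65 ± 2.24 RPKM (log2 fold change -0.53, limma adjusted p = 0.013) and Zyx, the mechanosensitive LIM protein zyxin, 45.7 ± 2.61 against 63.4 ± 8.72 RPKM (log2 fold change 0.46, limma adjusted p = 0.03). Neither passed, although neither overlapped between groups. The abundant linkers Flna, Vcl, Vasp and Actn1, which encode filamin A, vinculin, VASP and α-actinin-1, had log2 fold changes between -0.15 and 0.16 with overlapping groups.

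**Figure D5:**
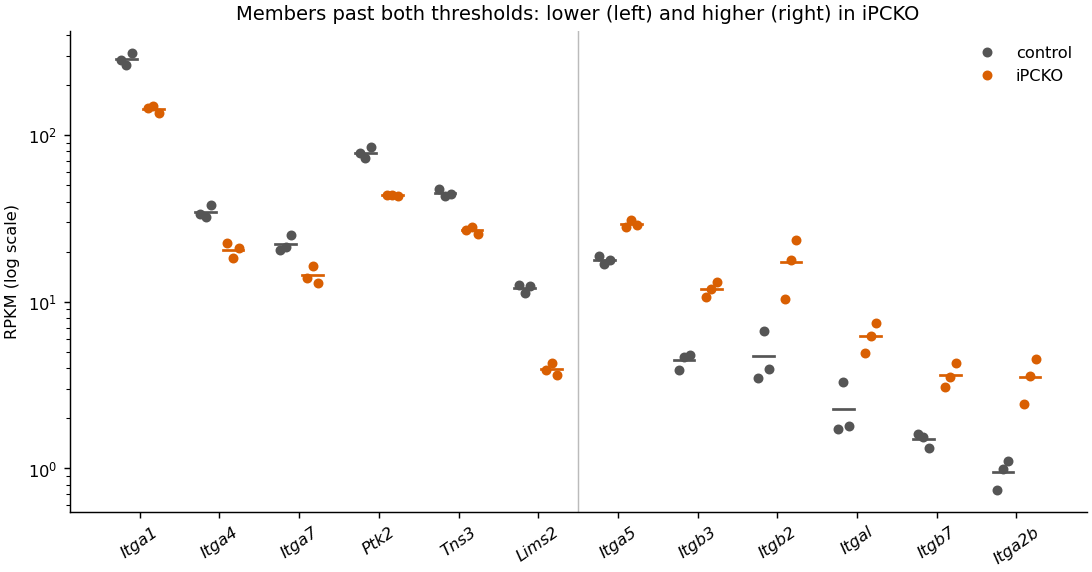
RPKM (log axis) of the 12 called members in each library, with bars at the group means and points for the 3 control (grey) and 3 iPCKO (orange) libraries. The points of the groups do not overlap for any of the 12 genes, and the spread among mutants is wider for Itgb2, Itgal and Itga2b than for Itga1, Ptk2 and Tns3.

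A further list of 50 adhesion genes, 42 of them tested, gave 3 calls (7.14%, against 6.79% of all tested genes). Arhgef7 encodes β-PIX, a Rac exchange factor of adhesions, and had 26.3, 22.0 and 22.8 RPKM in controls and 11.6, 12.2 and 11.8 RPKM in the iPCKO group, a log2 fold change of -0.99 (limma adjusted p = 0.00032). Fermt3, the kindlin of blood cells, rose from 2.98 ± 0.760 to 11.3 ± 4.70 RPKM and was highest in iPCKO 3, and Parvb, β-parvin, rose from 3.60 ± 0.238 to 6.15 ± 0.936 RPKM. The log2 fold changes of Fermt3 and Parvb were 1.83 and 0.75, and of the 6 leave-one-out fits 3 called Fermt3 and 1 called Parvb. The 39 genes that were not called included the most abundant of the list, such as Cald1, Csk, Src and Kank2.

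Of 15 ligands that integrins bind, 12 were tested and 2 called (16.7%, against 6.79% of all tested genes), and in 9 of the 12 the groups did not overlap (35.5% of all tested genes). Npnt encodes nephronectin, the ligand of α8β1, and fell from control values of 61.4, 58.2 and 65.7 RPKM to 29.5, 29.3 and 24.2 RPKM in the mutant, a log2 fold change of -1.16 (SE 0.10, limma adjusted p = 0.00026). Tnc, which encodes tenascin-C, rose from 120.5, 148.2 and 112.1 RPKM to 200.7, 300.8 and 285.1 RPKM, a log2 fold change of 1.03 (limma adjusted p = 0.0053) and was called in 2 of the 6 leave-one-out fits. The most abundant ligand, Postn (periostin), had 1053 ± 79.6 against 1444 ± 102.9 RPKM (limma adjusted p = 0.075), and the basement membrane protein gene Nid1 had 321.4 ± 17.8 against 263.6 ± 22.8 RPKM (limma adjusted p = 0.13). Thbs1, which encodes thrombospondin-1, had 105.4 ± 21.4 against 181.8 ± 30.0 RPKM (limma adjusted p = 0.017). Fn1, the fibronectin ligand of α5β1, had 103.8 ± 6.73 RPKM in controls and 116.4, 198.5 and 181.0 RPKM in the iPCKO group (limma adjusted p = 0.054). Among receptor genes of these ligands, Itga8 for Npnt and Itga9 for Tnc were not called. For Fn1, Itga5 was called higher, and Itga4, whose α4 also binds fibronectin, was called lower.

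Control 2 was the only control without Y-linked transcripts, and its distance from the 3 mutants is given as a description. The 12 called members were chosen with this library, and their groups do not overlap, which fixes the direction. On the log2 scale the distance was -1.49 for Lims2, -0.88 for Itga1, 0.80 for Itga5, 1.33 for Itgb3 and 1.69 for Itga2b. For Itgb2 and Itgal it was 1.29 and 0.87, less than the 1.83 and 1.45 with all controls. With Y-linked transcripts as a covariate in limma, where the genotype term rests on control 2 alone among the controls, Itgb3 (adjusted p = 0.0095) and Lims2 (adjusted p = 0.0029) were the members that passed both thresholds. Whether sex has a part in the other calls was not tested apart from this fit.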

How the data were processed

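Ribosome-associated RNA from lungs of 3 control and 3 iPCKO mice was sequenced. Per the labels and the study's methods, the authors mapped paired reads to mm10 with TopHat, counted them with HTSeq 0.6.1 and deposited RPKM per Ensembl gene. Which exon length, read total and strand setting entered is not given in the sources used here. Exons of Itga4, Itga7 and Lims2 overlap those of Cerkl, Mettl7b and Gpr17 on the opposite strand, whose own levels were at most 0.129 RPKM.

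From these files, genes of at least 1 RPKM in 3 libraries were tested with limma 3.58.1 (R 4.3.3; lmFit, eBayes with intensity trend) on log2(RPKM + 0.1). Fold changes on this scale understate the change of low genes. The thresholds are those of the study, whose own test needs counts. Named genes are the 40 members, Yap1 and Wwtr1, the called genes and examples among the most abundant of the lists of other adhesion genes and ligands, and defining genes of marker lists. Ddx3y was named after its values were seen. Members, roles and lists were chosen with earlier results of these data known. The limma p-values set the group difference against the spread among libraries of the same group, moderated across genes. Alternatives were other added values, filters, scalings, thresholds and weights, single libraries left out, the replicate number as a block, and Y-linked transcripts as a covariate, with 2 library subsets chosen after seeing the data. Symbols and coordinates came from GENCODE M21 and promoters from RefSeq, both on GRCm38.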

Additional observations from a re-analysis of the deposited data

How the results depend on the processing

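Of the 12 called members 7, Itgb7, Itgb3, Itga1, Itga5, Lims2, Ptk2 and Tns3, passed whichever of the 6 libraries was left out. Over these leave-one-out fits, members called ranged from 3 to 9 higher and from 4 to 5 lower, all genes from 196 to 476 higher and from 147 to 328 lower, other adhesion genes from 1 to 4 and ligands from 1 to 4. With the replicate block, 7 members were higher and 5 lower (579 and 343 of all genes), Itgam gained and Itga7 lost its call. Deviations of libraries with the same number correlated at 0.238, 0.092 and 0.022, and control 2 correlated best with iPCKO 3, so the numbers were not taken as pairs.

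Sample weights gave 998 genes higher and 592 lower, 9 other adhesion genes and 6 ligands. With Y-linked transcripts as a covariate 61 genes were higher and 58 lower, with 1 member in each direction. Without the most deeply sequenced pair, control 3 and iPCKO 2, where Itga2b was not tested, the counts were 62 and 64, again with 1 member in each direction (Itgb3 and Lims2), and 1 ligand. Between control 2 and the mutants they were 11 and 6, with 0 members in either direction. There 18 of 38 members (47.4%) and 18.1% of all tested genes had an unadjusted p-value below 0.05 (limma), and with 1 control the spread comes from the 3 mutants only. Other adhesion genes called were 0 in these 3 fits, with 7, 5 and 9 at an unadjusted p-value below 0.05 (limma; 16.5%, 15.7% and 18.1% of all tested genes), and ligands were 0 with the covariate and between control 2 and the mutants, with 3 in each at that level. An adjusted p-value below 0.05 gave 802 genes higher and 511 lower and 6 other adhesion genes, and a fold change above 1 gave 276 and 135, with 1 member lower and 1 other adhesion gene. Without the filter and with quantile normalization 1 ligand was called. The cause of these shifts was not tested.

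Of members that were not called, 6 changed sign in some setting, and the cause was not tested. Sample weights gave 0.106 for Tln1, 0.024 for Ilk and 0.075 for Actn1, the covariate gave 0.026 for Tln1, 0.058 for Tns1 and 0.033 for Vasp, and control 2 against the mutants gave 0.024 for Tln1, 0.059 for Tns1 and 0.033 for Vasp. With single libraries left out, Itga11 ranged from -0.13 to 0.50, Tln1 from -0.135 to 0.009 and Actn1 from -0.105 to 0.078. The pericyte list differed by 0.13 as a mean and by -0.31 as a median, the epithelial list by 0.29 and 0.06, and the fibroblast list ranged from -0.15 to 0.10 with single libraries left out. The tables hold no counts, and the precision of low members is limited by the depth read from their steps.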
